A study of Homo sapiens with 24 samples.

Results

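The serine and one-carbon enzymes described here are 10 genes of serine synthesis, mitochondrial folate metabolism and the amino acid supply next to them, PHGDH, PSAT1, PSPH, SHMT1, SHMT2, MTHFD2, MTHFD1L, ALDH1L2, ASNS and PCK2. They were chosen by name and found by Ensembl gene identifier, 1 identifier for each symbol, among the 60617 genes of the count table. All 10 were among the 15476 genes that passed the filter on low counts and were tested. RNA-seq was performed on MDA686TU (686Tu), 1 established line of squamous cell carcinoma from the head and neck, in 4 groups of 6 libraries. The groups were an untreated control, EGCG (the main catechin of green tea) at 40 µM, resveratrol (a stilbene polyphenol of grapes) at 15 µM, and the combination of both agents at these doses, all at 24 h. The medium of every group was DMEM/F12 with 10% serum. The sources used here do not say whether control cells received DMSO, in which the resveratrol stock was made, so resveratrol and its solvent cannot be told apart. RNA was isolated 6 times per group, and whether from separate cultures is not stated, so the p-values measure the spread between these libraries, which may be technical.

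Serine can be made from the glycolytic intermediate 3-phosphoglycerate in successive steps by PHGDH, PSAT1 and PSPH. Serine hydroxymethyltransferase, SHMT1 in the cytosol and SHMT2 in mitochondria, then splits serine into glycine and a one-carbon unit carried by tetrahydrofolate. In mitochondria MTHFD2 oxidises this unit, MTHFD1L releases it as formate for purine and thymidylate synthesis in the cytosol, and ALDH1L2 oxidises it to carbon dioxide with production of NADPH. PCK2 is the mitochondrial phosphoenolpyruvate carboxykinase, and ASNS makes asparagine from aspartate. Many of these genes are known targets of ATF4, the transcription factor of the amino acid response, and they are often raised in carcinoma cells.

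The RefSeq promoter table (GRCh38.p14, 250 bases before to 50 after each start) held windows for 7 of the 10 genes. Each window was searched on both strands for TGATGNAA, the core of the ATF4 and C/EBP composite element, for CACGTG, the E-box, and for TGACNNNGC, the core of the antioxidant response element. The stretches that carry the composite element or the antioxidant core are shown first, with the motif in capitals, and PSAT1 is shown as the gene with the highest level, whose window held no match to any of the 3 motifs.
ASNS, chr7:97872458-97872487, minus strand: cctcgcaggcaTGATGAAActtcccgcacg
MTHFD1L, chr6:150866346-150866375, plus strand: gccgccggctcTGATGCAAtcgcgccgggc
MTHFD2, chr2:74198610-74198639, plus strand: cttccctcccgGCGCAGTCAccggcgcggt
PSAT1, chr9:78296925-78297124, plus strand: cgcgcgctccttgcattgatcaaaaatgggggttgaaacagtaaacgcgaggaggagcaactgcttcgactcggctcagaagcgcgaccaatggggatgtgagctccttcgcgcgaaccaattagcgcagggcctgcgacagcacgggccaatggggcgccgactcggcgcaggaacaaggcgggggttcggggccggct
ASNS had 2 windows and MTHFD1L 4, and neither gene had a match in all of its windows. The ASNS match began 68 bases before the RefSeq start used. In the GENCODE v44 gene model ASNS starts at 97872542, so the printed stretch lies inside its first exon there. The MTHFD1L match began 129, 90 or, for the third start, 24 bases from the RefSeq start used, before the start in the first 2 cases and after it in the last. An E-box lay 25 bases before it in all 3 of these windows. The MTHFD2 match read on the opposite strand and began 6 bases after the first transcribed base. No match to these letters was found in the windows of PHGDH, PSAT1, PCK2 and SHMT1. Of all 35116 windows in the table, 3.62% held the composite core, 7.26% the E-box and 13.3% the antioxidant core. A match is a string of letters and no evidence of binding.

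The libraries held between 7034872 and 11735574 counts. The share of mitochondrial transcripts was 0.249% to 0.326% in replicates 1 to 3 of the groups and 0.448% to 0.775% in replicates 4 to 6, with no batch named in the labels, and values within each of these sets are given where a call differs between them. Combination replicate 3 stood slightly apart, with a mean correlation of 0.990 with the other libraries of its group, the lowest of the 24. All 12 squamous epithelial markers, such as KRT5, KRT14 and TP63, passed the filter, and 2 rose and 7 fell with resveratrol. The 6 leukocyte markers summed to at most 14.3 normalised counts in any library, and none was tested. The 7 fibroblast markers summed to 1117 to 1349 in the control, 898 to 1114 with EGCG, 1314 to 1559 with resveratrol and 1526 to 1755 with the combination, nearly all of it COL1A1, while DCN, PDGFRA and COL3A1 reached at most 1, 2 and 1 raw counts. Of 4 endothelial markers VWF alone was tested, and it was not called. Proliferation markers moved with resveratrol: their summed normalised counts ran from 23068 to 24599 in the control, 19062 to 20009 with resveratrol and 17517 to 18493 with the combination. The part of these markers in the results was not tested. In bulk RNA, fewer cells with a transcript and less of it per cell cannot be told apart.

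In untreated cells the 10 enzymes spanned a wide range of levels. FPKM values, which the authors divided by gene length, allow genes to be compared with each other. PSAT1 led with 295.9 ± 6.87 FPKM (mean ± SD, n = 6), above SHMT2 with 105.3 ± 1.78. MTHFD2 had 68.4 ± 1.58, PHGDH 39.1 ± 0.439 and PSPH 31.2 ± 1.21 FPKM. PSAT1 stood at place 178 of the 15476 tested genes in this order, SHMT2 at 591 and MTHFD2 at 897, so the transcripts of the second step of serine synthesis and of the mitochondrial folate entry were among the abundant ones. MTHFD1L had 22.1 ± 0.638 and PCK2 20.8 ± 0.539 FPKM in the control. SHMT1 followed with 9.58 ± 0.147 and ALDH1L2 with 3.17 ± 0.226 FPKM. ASNS was the lowest with 0.543 ± 0.208 FPKM, at place 13847. Of its coding bases 96.1% lie also in another gene on the same strand, and the part of this in its low value was not tested. The exonic length of MTHFD2 in GENCODE v44 was 2.37 times longer than the length behind its FPKM value, relative to the other members. Its place, and the size of any FPKM ratio to another gene, thus depend on the annotation.

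**Figure D1:**
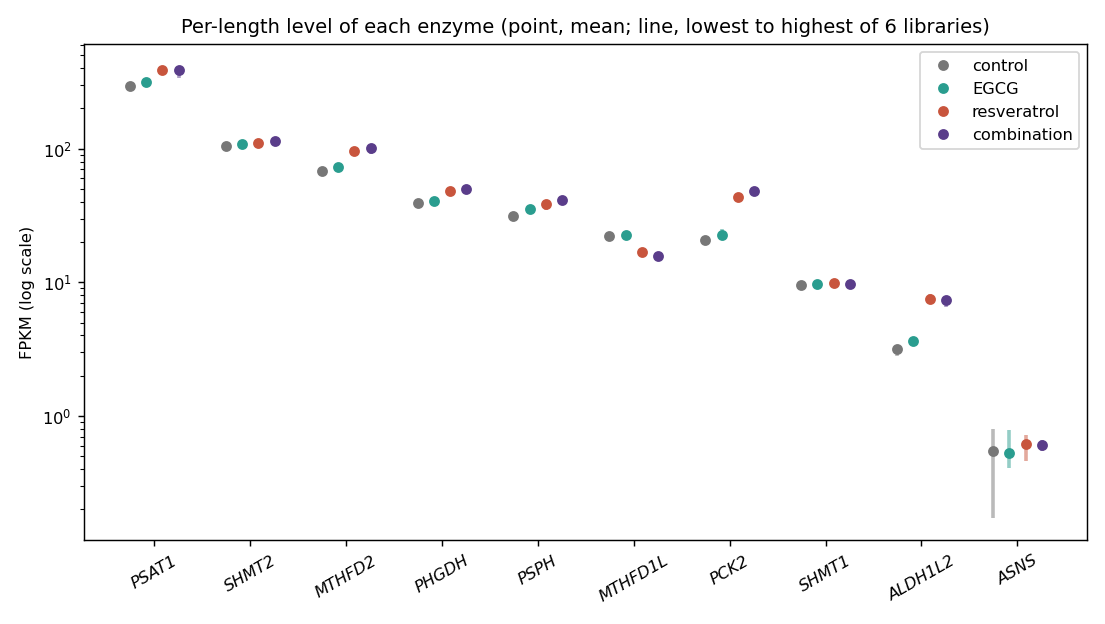
FPKM of each of the 10 enzymes on a log axis, ordered by the mean in the untreated control. Points are means and lines run from the lowest to the highest of 6 libraries in each group. PSAT1 is highest at 295.9 FPKM in the control and ASNS lowest at 0.543, and PCK2 moves from below MTHFD1L in the control to well above it with resveratrol and with the combination.

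The order of levels changed in few places with treatment. PCK2 rose to 43.6 ± 1.204 FPKM with resveratrol and 48.1 ± 2.57 with the combination, past PSPH at 38.6 ± 2.26 and 41.2 ± 1.63. MTHFD1L was lower at 16.9 ± 0.538 and 15.7 ± 0.747 FPKM. The ratio of PCK2 to MTHFD1L was 0.946 ± 0.0374 in untreated cells, 1.01 ± 0.0557 after EGCG, 2.58 ± 0.0644 with resveratrol and 3.07 ± 0.211 with the combination. For MTHFD2 to MTHFD1L, successive enzymes of the mitochondrial pathway, it was 3.10 ± 0.144 in the control, 5.68 ± 0.226 with resveratrol and 6.44 ± 0.586 with the combination. In contrast, the mitochondrial to cytosolic ratio SHMT2 to SHMT1 lay between 10.99 ± 0.301 and 11.6 ± 0.607 in all 4 groups. These ratios are given as descriptions without a test.

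Each treatment was then compared with the untreated control to find which enzymes changed. A gene was counted as changed when edgeR's quasi-likelihood test gave a Benjamini-Hochberg adjusted p under 0.1 over all tested genes and an unadjusted p under 0.05. Resveratrol raised 7 of the 10 enzymes and lowered 1, where 56.9% of all tested genes changed (28.9% up and 28% down). The combination also raised 7 and lowered 1, where 59.8% of all tested genes changed (29.9% up and 29.9% down). The share of members that changed was thus above that of all genes, but it was read on only 10 genes chosen with earlier results known. Most members are among the more abundant tested genes, and the shares of all genes were not matched for level. The median log2 fold change of the 10 enzymes was 0.31 with resveratrol and 0.37 with the combination, against 0.00 for all tested genes in both comparisons. The 6 treated libraries did not overlap the 6 control libraries for 8 members with resveratrol (31.1% of all tested genes) and for 8 with the combination (31.9%). Scaling by library size alone moved the median of all genes by up to 0.09 and the share of calls that were higher from 50.7% to 68.3% with resveratrol and from 50.04% to 64.6% with the combination, and added SHMT1 to the members that rose. A 1.5-fold change was passed by ALDH1L2 and PCK2 in both comparisons, where 9.78% of tested genes with resveratrol and 11.9% with the combination were called and passed it.

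**Figure D2:**
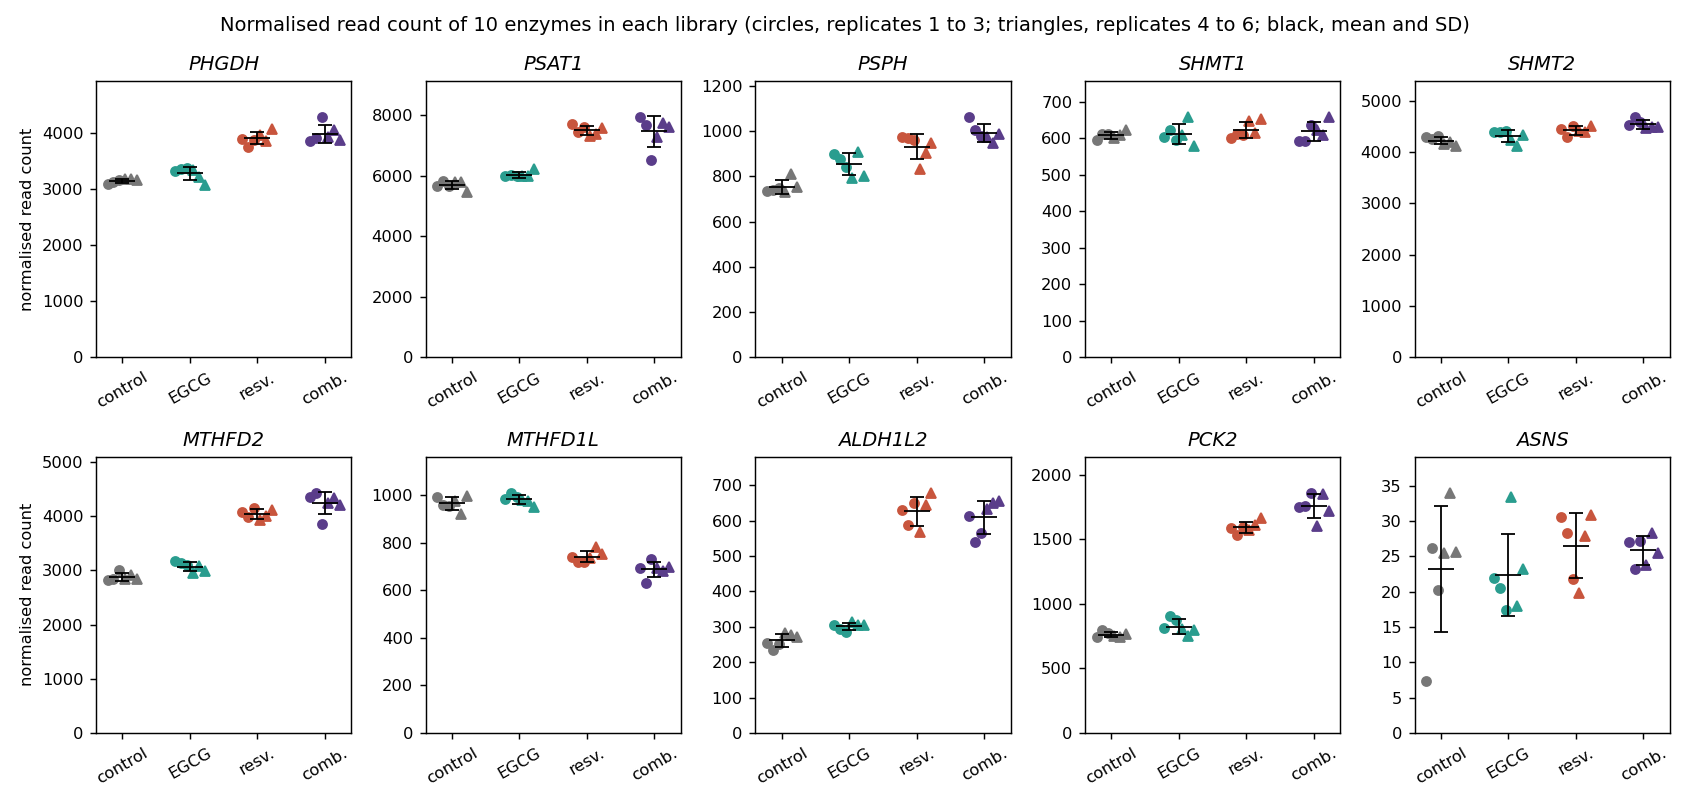
Normalised read count of each enzyme in all 24 libraries by group, with axes from 0. Circles are replicates 1 to 3, triangles replicates 4 to 6, and black marks the mean and SD. For ALDH1L2 and PCK2 the resveratrol and combination libraries lie far above those of control and EGCG, for MTHFD1L they lie below, and for SHMT1 and ASNS the groups overlap.

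The enzymes of serine synthesis rose together with resveratrol, by a modest amount. PHGDH (chromosome 1), the entry enzyme of the pathway, had normalised read counts of 3084 to 3178 in the control libraries (median 3158), 3066 to 3373 with EGCG (3318), 3750 to 4072 with resveratrol (3877) and 3858 to 4277 with the combination (3919). Control and EGCG overlapped, and all libraries with resveratrol, alone or combined, lay above both. Its log2 fold change against control was 0.31 (SE 0.03, edgeR adjusted p = 2.56e-11) with resveratrol and 0.34 (SE 0.03, adjusted p = 1.91e-12) with the combination. PSAT1 (chromosome 9), the aminotransferase of the second step, had 5467 to 5819 normalised counts in the control (median 5729), 5978 to 6228 with EGCG (5992), 7292 to 7693 with resveratrol (7505) and 6514 to 7933 with the combination (7637). The lowest combination value was that of replicate 3, and it still lay above every EGCG library. The change of PSAT1 was 0.40 (SE 0.03, adjusted p = 2.46e-13) with resveratrol and 0.39 (SE 0.03, adjusted p = 3.07e-13) with the combination. PSPH (chromosome 7), the phosphatase that releases serine, had 732 to 810 normalised counts in the control (median 744), 794 to 907 with EGCG (859), 833 to 972 with resveratrol (955) and 946 to 1062 with the combination (982). Here the groups formed a stair in which EGCG overlapped control in its lowest libraries and overlapped resveratrol in its highest. PSPH changed by 0.31 (SE 0.04, adjusted p = 5.19e-08) with resveratrol and 0.40 (SE 0.04, adjusted p = 1.87e-10) with the combination. In replicates 1 to 3 alone its change with resveratrol was 0.40 and in replicates 4 to 6 alone 0.22, past the limits in each.

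The hydroxymethyltransferases changed little. SHMT2 (chromosome 12), the mitochondrial enzyme, had 4124 to 4305 normalised counts in the control (median 4225), 4112 to 4415 with EGCG (4358), 4284 to 4511 with resveratrol (4434) and 4475 to 4681 with the combination (4503). Its log2 fold change was 0.07 (SE 0.02, edgeR adjusted p = 0.0141) with resveratrol and 0.11 (SE 0.02, adjusted p = 0.000346) with the combination, rises of 1.05-fold and 1.08-fold. The resveratrol call of SHMT2 was lost in replicates 1 to 3 alone (0.05, adjusted p = 0.263) and with every gene of at least 1 count tested (0.07, adjusted p = 0.169). SHMT1 (chromosome 17), the cytosolic form, had 597 to 624 normalised counts in the control, 578 to 659 with EGCG, 602 to 655 with resveratrol and 593 to 659 with the combination. All 4 groups overlapped, and the 95% interval of its change ran from -0.04 to 0.11 with resveratrol and from -0.05 to 0.11 with the combination. With library size as the only scaling SHMT1 was called higher, at 0.13 and 0.11.

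The enzymes that handle the one-carbon unit in mitochondria moved in opposite directions. MTHFD2 (chromosome 2), the dehydrogenase and cyclohydrolase, had 2826 to 3000 normalised counts in the control (median 2844), 2955 to 3170 with EGCG (3086), 3927 to 4145 with resveratrol (4037) and 3862 to 4431 with the combination (4292). Its log2 fold change was 0.49 (SE 0.03, edgeR adjusted p = 1.15e-16) with resveratrol and 0.56 (SE 0.03, adjusted p = 2.14e-18) with the combination. MTHFD1L (chromosome 6), the formate-releasing synthetase, had 921 to 996 normalised counts in the control (median 967), 951 to 1010 with EGCG (983), 718 to 780 with resveratrol (737) and 631 to 730 with the combination (694). Every library with resveratrol, alone or combined, lay below every library without it. MTHFD1L fell by 0.38 (SE 0.03, adjusted p = 9.92e-12) on the log2 scale with resveratrol and fell by 0.49 (SE 0.03, adjusted p = 1.79e-14) with the combination, to 0.768 and 0.714 of control. ALDH1L2 (chromosome 12), the mitochondrial formyltetrahydrofolate dehydrogenase, had 234 to 283.6 normalised counts in the control (median 263), 284.4 to 314 with EGCG (304), 569 to 679 with resveratrol (637) and 539 to 657 with the combination (623). These values separated the libraries into a low pair and a high pair of groups with no overlap between the pairs. ALDH1L2 rose 2.39-fold with resveratrol (log2 1.26, SE 0.05, adjusted p = 1.3e-20) and 2.32-fold with the combination (log2 1.22, SE 0.05, adjusted p = 3.19e-20). It held place 116 of 15476 tested genes by size of rise with resveratrol. Despite this rise it remained low, at 0.0787 ± 0.00393 of the FPKM of MTHFD2 with resveratrol against 0.0463 ± 0.00354 in the control. The size of this ratio depends on the length used for MTHFD2.

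PCK2 (chromosome 14), which links mitochondrial oxaloacetate to phosphoenolpyruvate and so to 3-phosphoglycerate, was the other enzyme that more than doubled. Its normalised counts were 743 to 795 in the control (median 759), 752 to 910 with EGCG (807), 1532 to 1664 with resveratrol (1589) and 1607 to 1862 with the combination (1758). Control and EGCG overlapped and lay below all resveratrol libraries, and the combination overlapped resveratrol at its lower end. PCK2 rose 2.10-fold with resveratrol (log2 1.07, SE 0.04, edgeR adjusted p = 1.94e-22) and 2.31-fold with the combination (log2 1.21, SE 0.04, adjusted p = 2.46e-24). In replicates 1 to 3 the rises were 1.04 and 1.23, and in replicates 4 to 6 they were 1.10 and 1.19.

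**Figure D3:**
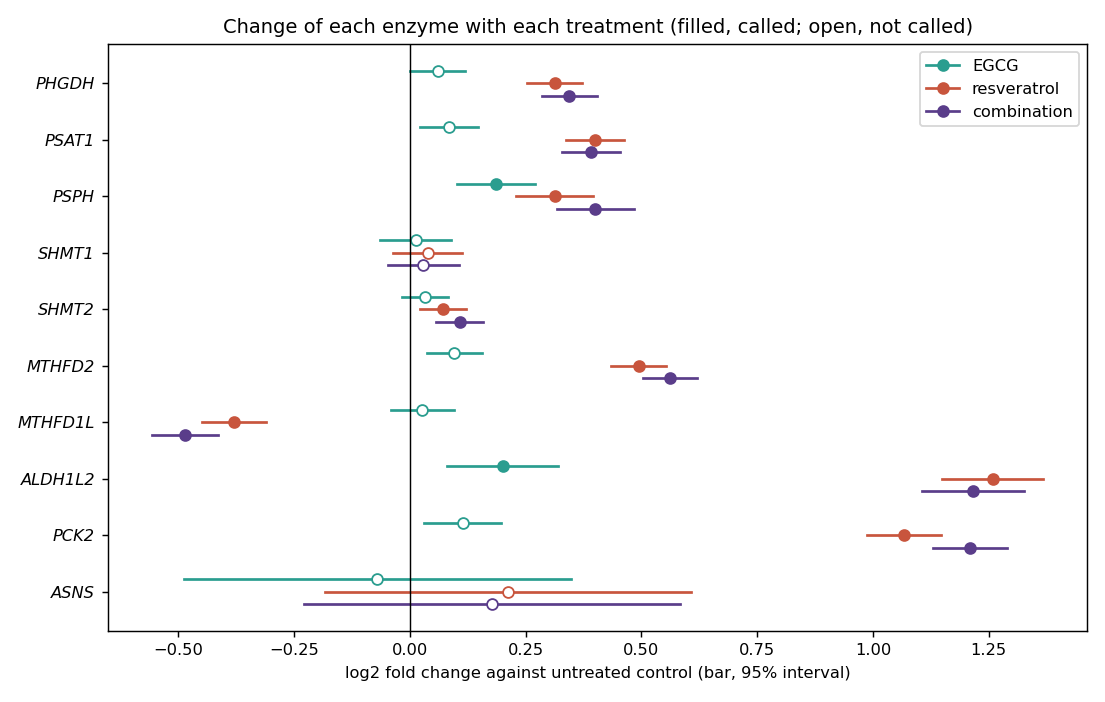
Log2 fold change of each enzyme against the untreated control for each treatment, with its 95% interval. Filled points were called by the limits above and open points were not. ALDH1L2 and PCK2 lie above 1 with resveratrol and with the combination, MTHFD1L is the one enzyme below 0 among the filled points, and the interval of ASNS is many times wider than that of the other enzymes.

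ASNS, asparagine synthetase, was counted at 8 to 36 raw reads per library and could not be compared with the precision of the other members. Its normalised counts were 7.37 to 34.0 in the control (median 25.6), 17.5 to 33.4 with EGCG (21.2), 19.8 to 30.8 with resveratrol (28.1) and 23.2 to 28.3 with the combination (26.3). All groups overlapped. The log2 fold change was 0.21 (95% interval -0.18 to 0.61, edgeR adjusted p = 0.379) with resveratrol and 0.18 (95% interval -0.23 to 0.58, adjusted p = 0.472) with the combination, so a change within these intervals was not detectable with these counts. The sets of libraries differed for ASNS with resveratrol. In replicates 1 to 3 alone it passed the limits at 0.61 (adjusted p = 0.0852), and in replicates 4 to 6 alone it was at -0.12 (adjusted p = 0.728). Control replicate 1, in the first of these sets, had 8 raw reads, or 7.37 normalised counts, the lowest of all libraries. With single libraries left out, the change with resveratrol ran from 0.016 to 0.37. Without control replicate 1, ASNS was at -0.018 with the combination against control. In GENCODE v44, ASNS lies on chromosome 7 from 97851677 to 97872542 on the minus strand. Of its exonic bases 49.3%, and of its coding bases 96.1%, lie also in exons of ENSG00000284707, a long non-coding gene on the same strand that reads through ASNS from 97851688 to 97972985. That gene had a mean of 10.2 counts per library, and the ASNS pseudogenes ASNSP1 and ASNSP4 had means of 14.2 and 11.8. How reads that match several genes were counted is not given in the sources used here, so the part of this overlap in the low ASNS count was not tested. For the other 9 members the share of exonic bases in a same-strand gene was at most 1.04% (SHMT1). Exons of genes on the opposite strand share 1324 bases with MTHFD2 (SLC4A5, mean 1.58 counts), 197 with SHMT1 (SMCR8, mean 1192 counts) and 145 with ALDH1L2 (NOPCHAP1, mean 268 counts), and without a stated strand setting such reads cannot be told apart. Apart from ASNS, no pseudogene named for a member exceeded 2.53% of that member's mean count.

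**Figure D4:**
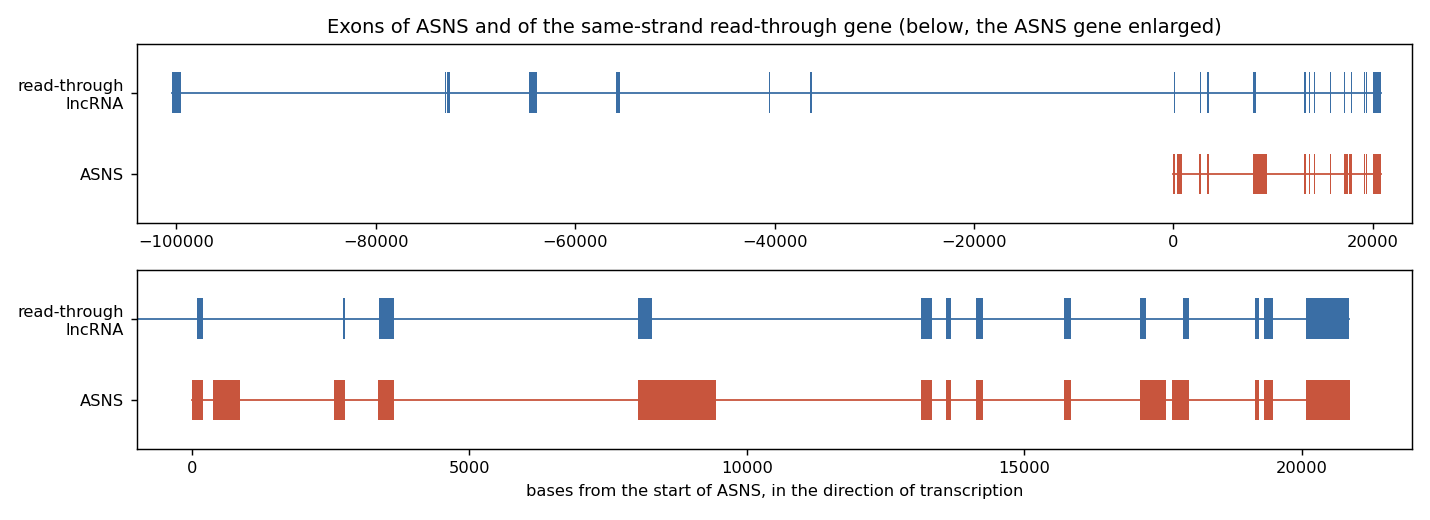
Exons of ASNS and of the same-strand read-through long non-coding gene in GENCODE v44, drawn by distance in bases from the start of ASNS in the direction of transcription. The upper panel shows the whole read-through gene and the lower panel the ASNS gene. Exons of the read-through gene share 49.3% of the exonic and 96.1% of the coding bases of ASNS.

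EGCG alone changed few members and by little. It raised 2 of the 10 enzymes and lowered none, where 1.76% of all tested genes changed (0.905% up and 0.859% down). PSPH rose by 0.19 (SE 0.04, edgeR adjusted p = 0.0111), and ALDH1L2 rose by 0.20 (SE 0.06, adjusted p = 0.0989). The call of ALDH1L2 was at the limit and was lost when any 1 of the 12 libraries except control replicate 4 was left out, with adjusted p from 0.104 to 0.251. All 6 EGCG libraries of ALDH1L2 and of PSAT1 lay above all 6 control libraries, as 1.63% of tested genes did in either direction. PSAT1 was at 0.08 (SE 0.03, adjusted p = 0.252), MTHFD2 at 0.10 (SE 0.03, adjusted p = 0.118) and PCK2 at 0.11 (SE 0.04, adjusted p = 0.235). None of these passed the limits. MTHFD2 passed with DESeq2 (adjusted p = 0.0833), with library size as the only scaling (0.0907), with a term for the sets of replicates (0.0827) or the replicate block (0.0857), without control replicate 3 (0.0799) or without EGCG replicate 4 (0.0927), and PCK2 passed without EGCG replicate 5 (0.0822). An unadjusted p under 0.05 was reached by 6 members, where 10.1% of all tested genes reached it. In replicates 4 to 6 alone no member was called, with PSPH at 0.14 and ALDH1L2 at 0.14, and in replicates 1 to 3 alone PSPH was called at 0.24.

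The question of what EGCG added to resveratrol was addressed by comparing the combination with resveratrol alone. PCK2 was 1.10-fold higher with the combination (log2 0.14, SE 0.04, edgeR adjusted p = 0.0181) and MTHFD1L was lower, at 0.929 of the resveratrol level (log2 -0.11, SE 0.04, adjusted p = 0.0773). These were 2 of 10 members called, where 7.86% of all tested genes were called (4.01% higher and 3.86% lower). No member had groups that did not overlap, as 3.19% of tested genes did. The call of PCK2 held with each library left out in turn but not in replicates 4 to 6 alone (0.09, adjusted p = 0.414). That of MTHFD1L was lost when resveratrol replicate 1, 4, 5 or 6 or combination replicate 1, 2 or 5 was left out, with values from -0.11 to -0.08. For the other enzymes the 95% interval of the difference is given. ASNS lay between -0.43 and 0.36, which bounds little, and SHMT1 between -0.08 and 0.07. PHGDH lay between -0.03 and 0.09, PSAT1 between -0.07 and 0.05, SHMT2 between -0.01 and 0.09, and ALDH1L2 between -0.14 and 0.06. PSPH at 0.09 (adjusted p = 0.231) and MTHFD2 at 0.07 (adjusted p = 0.194) did not pass, and without combination replicate 3 MTHFD2 passed at 0.09 (adjusted p = 0.032).

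The interaction of the agents, the change with the combination beyond the sum of both single changes on the log2 scale, was called for 0 of the 10 enzymes, where edgeR called 0.265% of all tested genes. At an unadjusted p under 0.05 it held 3 members (7.72% of tested genes), and DESeq2 called 0 as well. The values of these 3 were -0.24 (SE 0.08, adjusted p = 0.299) for ALDH1L2, -0.13 (SE 0.05, adjusted p = 0.457) for MTHFD1L and -0.09 (SE 0.04, adjusted p = 0.624) for PSAT1. For ALDH1L2 the combination thus stood below the sum of the single changes, and for MTHFD1L it stood lower than that sum, though neither passed the limits. PHGDH was at -0.03 (95% interval -0.11 to 0.05) and PCK2 at 0.03 (-0.08 to 0.14).

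Compared with EGCG alone, the combination raised 7 members and lowered 1 (57.8% of all tested genes called, 28.7% higher and 29.1% lower), and resveratrol raised 6 and lowered 1 (55% called, 27.7% higher and 27.3% lower). SHMT2 was no longer called between combination and EGCG with every gene of at least 1 count tested (adjusted p = 0.153) or in replicates 1 to 3 alone (0.167), which left 6 raised. PSPH, which had also risen with EGCG, differed between resveratrol and EGCG by 0.13 (SE 0.04, edgeR adjusted p = 0.00948), a call lost in replicates 4 to 6 alone (0.09, adjusted p = 0.209). SHMT2 did not pass between resveratrol and EGCG (0.04, adjusted p = 0.181), and it passed with at least 10 counts in every library (0.07), with library size as the only scaling (0.12) and without EGCG replicate 1 (0.07), 2 (0.06), 4 (0.05) or 6 (0.06). ASNS passed that comparison only without EGCG replicate 4 (0.42, adjusted p = 0.0838). In two-sided exact permutation tests of mean log2 CPM, 6 libraries against 6, 8 members reached the smallest p such a test can give, 0.00216, in each of resveratrol against control, combination against control and combination against EGCG (27.5% of tested genes did not overlap there). Between resveratrol and EGCG 6 members reached it (27.3% of tested genes did not overlap). With EGCG against control 2 members reached it (1.63% of tested genes did not overlap) and with the combination against resveratrol 0 did (3.19%). This smallest p is reached only where the 2 groups do not overlap, so these counts restate the overlap of groups and add no further test.

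The counts of related genes stand beside the shares of all tested genes, 28.9% higher and 28% lower with resveratrol and 29.9% higher and 29.9% lower with the combination, and a count near these shares is no result about its list. Among 25 tested enzymes of the folate cycle, glycine cleavage and methionine cycle, 8 rose and 10 fell with the combination, near these shares, with a median change of 0.03 on the log2 scale, and with library size as the only scaling 10 rose and 6 fell. The transsulfuration enzymes CBS and CTH rose by 0.74 (SE 0.04) and 0.86 (SE 0.10), and SDSL, a serine dehydratase-like enzyme, rose by 1.42 (SE 0.13). MTHFD1, the cytosolic trifunctional partner of the mitochondrial enzymes, fell by 0.34 with resveratrol and fell by 0.32 with the combination. It was named after its values were seen. The FPKM ratio of MTHFD1L to MTHFD1 was 0.884 ± 0.0326 in the control and 0.859 ± 0.0261 with resveratrol and 0.788 ± 0.0269 with the combination. Scaling by library size alone left these directions in place for CBS, CTH, SDSL and MTHFD1.

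The enzymes of purine synthesis, a pathway that consumes formyl groups from the folate cycle, were mostly lower. With resveratrol 11 of 13 fell and 1 rose (median -0.19), and with the combination 12 fell and 1 rose (median -0.28). ATIC, the last enzyme of the pathway to inosine monophosphate, had 1342 to 1570 normalised counts in the control and 984 to 1085 with the combination, without overlap. ATIC fell by 0.53 (SE 0.04) with the combination, ADSL by 0.47 (SE 0.06) and PAICS by 0.43 (SE 0.03) on the same scale. The gene that rose was ADSS1 at 0.85 (SE 0.22), the minor adenylosuccinate synthase here with a mean of 14.04 normalised counts in the control. With library size as the only scaling 7 enzymes fell with resveratrol and 9 with the combination. The proliferation markers moved in the same libraries, with 7 of 9 lower with resveratrol and 8 of 9 lower with the combination, and their part in the purine result was not tested.

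**Figure D5:**
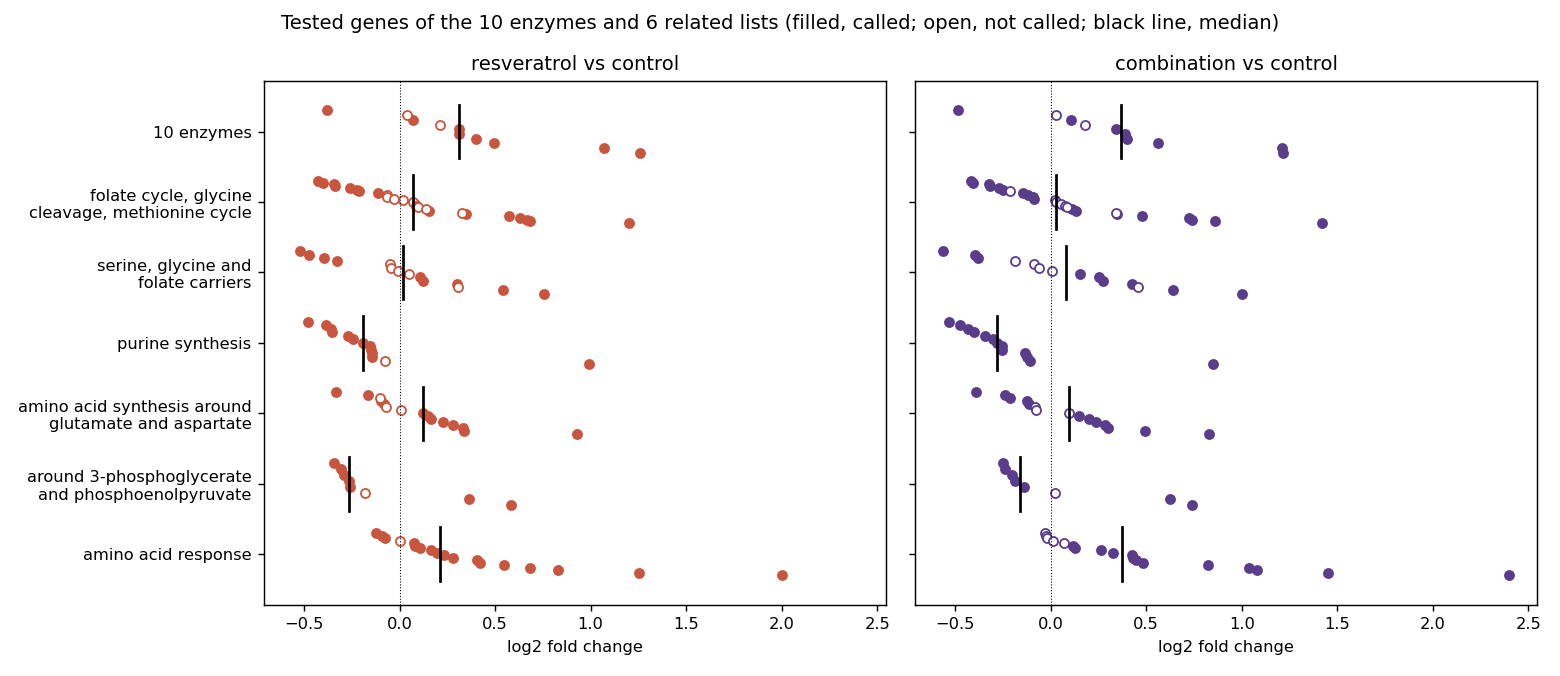
Log2 fold changes of the tested genes of the 10 enzymes and of 6 related lists with resveratrol (left) and with the combination (right) against control. Filled points were called, open points were not, and black lines are list medians. The purine synthesis enzymes lie below 0 apart from ADSS1, and the amino acid response list reaches 2.40 for NUPR1 with the combination.

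Of 14 tested carriers for serine, glycine and folates, 6 were higher and 3 lower with the combination, where 29.9% of all tested genes were higher and 29.9% lower. SLC1A4, a neutral amino acid exchanger that carries serine, had 494 to 607 normalised counts in the control and 1025 to 1177 with the combination, without overlap, and rose by 1.00 (SE 0.05). It was also higher with the combination than with resveratrol, by 0.25 (SE 0.04, edgeR adjusted p = 0.000255). SLC6A9, a glycine transporter, rose by 0.64 (SE 0.05). The reduced folate carrier SLC19A1 fell by 0.56 (SE 0.05) and the proton-coupled folate transporter SLC46A1 rose by 0.42 (SE 0.12). SLC19A1 and SLC46A1 thus moved in opposite directions. SLC46A1 was low, with a mean of 53.0 normalised counts in the control and 71.1 with the combination. Both were named for the size of their change, so they do not describe the folate carriers as a whole.

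Around glutamate and aspartate, 7 of 15 tested enzymes rose and 5 fell with the combination, where 29.9% of all tested genes rose and 29.9% fell. ASS1, which makes argininosuccinate from aspartate, rose by 0.83 (SE 0.05), and GPT2, the mitochondrial alanine transaminase, by 0.49 (SE 0.03). BCAT1, the cytosolic branched-chain transaminase, fell by 0.39 (SE 0.05). Of 8 tested enzymes around 3-phosphoglycerate, the substrate of PHGDH, and phosphoenolpyruvate, the product of PCK2, 2 rose and 5 fell. ENO2 rose by 0.74 (SE 0.06) and PC, pyruvate carboxylase, which supplies the oxaloacetate that PCK2 uses, by 0.62 (SE 0.08). ENO1 and PKM, far more abundant glycolytic enzymes, fell by 0.25 (SE 0.02) and 0.24 (SE 0.02). With library size as the only scaling 4 fell, and the phosphoglycerate mutase PGAM1, named for this reason after its values were seen, was no longer called.

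The regulators and markers of the amino acid response were raised with the members. With resveratrol 14 of 18 rose and 3 fell (median 0.21), and with the combination 13 rose and 0 fell (median 0.37). With library size as the only scaling 15 rose and 0 fell in each. In replicates 4 to 6 alone 11 of the 18 were called with resveratrol. NUPR1, a stress-induced chromatin protein, rose by 2.40 (SE 0.15) with the combination from a mean of 11.9 normalised counts in the control to 63.5. CHAC1, a glutathione-degrading enzyme, rose by 1.45 (SE 0.04), DDIT3 (CHOP) by 1.08 (SE 0.06) and TRIB3, a pseudokinase, by 1.04 (SE 0.04). All 4 were also higher with the combination than with resveratrol, by 0.40, 0.20, 0.25 and 0.35. ATF4 itself changed by 0.08 and 0.12 at the transcript level with resveratrol and with the combination, and was named after its values were seen.

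EGCG alone raised 1 of 25 folate and methionine cycle enzymes, 1 of 14 carriers, 0 of 13 purine enzymes, 1 of 15 amino acid enzymes, 3 of 8 enzymes around 3-phosphoglycerate and 5 of 18 amino acid response genes, and lowered none of them. Of all tested genes 0.905% rose and 0.859% fell with EGCG, and a single call is no result about its list. In replicates 1 to 3 alone, and in replicates 4 to 6 alone, only 1 enzyme around 3-phosphoglycerate was called. Only 1 amino acid response gene was called in replicates 4 to 6 alone. With DESeq2, 1 folate and methionine cycle enzyme was called lower with EGCG. The 5 response genes included CHAC1 (0.28) and TRIB3 (0.20), and CBS, SLC1A4, GPT2 and ENO2 rose by 0.19, 0.19, 0.14 and 0.31. Between combination and resveratrol, 8 of the 18 response genes and 4 of the 8 enzymes around 3-phosphoglycerate were higher and none lower, while 2 of 13 purine enzymes were lower and none higher. In the other lists 1 folate cycle enzyme was higher and 1 lower, 2 carriers were higher and 1 amino acid enzyme was higher. Between combination and resveratrol 4.01% of all tested genes were higher and 3.86% lower, so counts of 1 or 2 genes are no result about a list.

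The genes with a pattern most like that of the 2 members that changed by more than 1.5-fold were found by the distance between their fitted log2 fold changes in the 3 comparisons with control, which share the control libraries. Nearest to ALDH1L2 were NYNRIN (distance 0.0881), USP41 (0.0945) and RASSF6 (0.0951), and 33 tested genes lay within 0.2. Nearest to PCK2 were DHX58 (0.0570), DPYSL3 (0.0687) and ETV7 (0.0732), and 60 genes lay within 0.2. Most of these are low genes, with mean raw counts from 11.5 for ETV7 to 99.9 for RASSF6.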

How the data were processed

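RNA-seq of 24 libraries from 686Tu cells was analysed, 6 in each of 4 groups that the labels give. Per the labels and the methods, the authors made stranded mRNA libraries with TruSeq, and the submitters' processing notes list Trimmomatic 0.36, HISAT2 2.0.4, SAMtools 1.3.1 and the build GRCh38. The counting program, annotation release and strand setting are not given in the sources used here. The authors deposited raw counts per gene, normalised counts, a signal per gene that equals the count over 1 factor per library, and FPKM values, which are these normalised counts divided by gene length.

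The raw counts entered 1 fit over the 24 libraries in edgeR 4.0.16 under R 4.3.3 (TMM, filterByExpr, quasi-likelihood test, group as the only term). Of 60617 genes, 15476 were tested. Totals were 7034872 to 11735574 counts per library. Normalised counts were used for levels of 1 gene, FPKM for levels between genes. Gene models came from GENCODE v44, and all 158 symbols in the lists matched 1 identifier. The test was also run on simulated counts with a single spread and no difference between sets of replicates. That run does not show how the p-values behave in these libraries.

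The 10 members and the lists were chosen with earlier results of these data known. Named genes outside them were the 3 nearest to each member changed over 1.5-fold, and from each list at most the 4 called with the largest change with the combination, plus pseudogenes and overlapping genes. MTHFD1, ATF4 and PGAM1 were named outside this rule, after their values were seen. Alternatives were DESeq2 1.42.0, other scalings, filters and limits, only the groups compared, the replicate number as a block, replicates 1 to 3 or 4 to 6 alone or as a term, and each library left out in turn.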

Additional observations from a re-analysis of the deposited data

Results flagged for a closer look

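In 3 of the 40 sets of 6 libraries (10 enzymes in 4 groups), 1 library lay far from the other 5 by Dixon's test, where chance flags about 1 in 20 sets. PSAT1 with EGCG had 6228 normalised counts in replicate 6, and the next highest library had 6034. PSPH in the control had 810.2 in replicate 5, and the next had 754. ASNS with EGCG had 33.4 in replicate 4, and the next had 23.2. No enzyme had a called interaction of the agents.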

How the results depend on the processing

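The counts of enzymes called with resveratrol and with the combination against control stayed at 7 to 9 of 10 under every alternative run, with 7 for resveratrol when every gene of at least 1 count was tested. Counts that rest on small changes moved. With EGCG, 2 became 1 with DESeq2 size factors, with at least 10 counts in every library, with an adjusted p under 0.05, in replicates 1 to 3 alone and when single libraries were left out (1 to 2), and 0 in replicates 4 to 6 alone, and became 3 with the DESeq2 test, library size alone and a term for the sets of replicates, MTHFD2 being added. Between combination and resveratrol, 2 became 1 with DESeq2, with every gene of at least 1 count tested, with an adjusted p under 0.05, with only the groups compared and in replicates 1 to 3 alone, 0 in replicates 4 to 6 alone, and 1 to 3 when single libraries were left out.

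The labels give replicate numbers but name no pairing. Same-numbered libraries had low correlations of -0.01 to 0.13 between their deviations, and 2 of 36 pairs were over 0.1. In some pairs the same-numbered library was still the closest match, as for replicate 6 of EGCG and control. Whether same-numbered libraries were handled together is not stated. With the replicate block, 3 enzymes were called with EGCG, MTHFD2 at 0.10 being added, and no other call of an enzyme changed. Over all genes the block gave 370 calls with EGCG against 273, and 85 for the interaction against 41. The interaction gave 69 with DESeq2, 92 with every gene, 79 with a term for the sets of replicates, and 6 and 24 within them. EGCG gave 84 and 85 calls within them, and the combination against resveratrol gave 803 with an adjusted p under 0.05 and 399 in replicates 4 to 6 alone, against 1217.

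Changes of sign occurred only for values that were not called over all libraries. In replicates 1 to 3 alone ASNS was at 0.18 with EGCG and -0.24 in the interaction, and it was called with resveratrol at 0.61. That set holds control replicate 1, which had 8 raw ASNS reads. In replicates 4 to 6 alone ASNS was at -0.12 with resveratrol and -0.13 with the combination; between combination and resveratrol PHGDH was at -0.0042, PSAT1 at 0.025 and ALDH1L2 at 0.038; in the interaction SHMT2 was at -0.0039 and MTHFD2 at 0.015. SHMT2 in the interaction was at -0.0080 with library size alone. With single libraries left out, ASNS ran from -0.27 to 0.068 with EGCG, -0.018 to 0.33 with the combination, -0.10 to 0.010 between combination and resveratrol and -0.10 to 0.23 in the interaction. SHMT1 ran from -0.012 to 0.025 with EGCG, -0.026 to 0.0043 between combination and resveratrol, -0.00074 to 0.041 between combination and EGCG and -0.039 to 0.0036 in the interaction, SHMT2 from -0.010 to 0.011 in the interaction, and PSAT1 from -0.026 to 0.027 between combination and resveratrol, above 0 only without combination replicate 3. The cause was not tested. Depth limits ASNS, SDSL, ADSS1 and NUPR1, which had few counts.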
